A study of Mus musculus with 9 samples.

Results

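Loss of NCoR in liver cells that already lacked SMRT was read from 3 double KO livers set against 3 SMRT KO livers, 6 of the 9 arrays of the series. The 6 arrays were taken by their titles, and 22180 genes were compared, each by a probe set with exactly 1 symbol. The livers of SMRT KO mice lacked the corepressor SMRT, and those of double KO mice lacked SMRT as well as NCoR. The remaining 3 arrays came from control mice, which carried floxed SMRT and NCoR alleles with no deletion, and they entered the model as a shared estimate of the spread. All 9 mice were euthyroid females of a mixed 129SV/B6 background, 7 to 9 weeks old and fed standard chow ad libitum, with 1 array per mouse. The labels name neither the Cre driver nor the NCoR allele of the SMRT KO mice, so the comparison would also hold any other difference between these groups, such as genetic background. With no group lacking NCoR alone, the data show what its loss adds where SMRT is absent, and not its loss by itself.

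NCoR and SMRT are large scaffold proteins that bind nuclear receptors such as the thyroid hormone, retinoic acid, liver X (LXR) and PPAR receptors when these carry no agonist, and bring the histone deacetylase HDAC3 to the receptors' target genes. Removing them is known to raise the resting level of such targets, and in liver the genes of fat synthesis and fat burning are among the best studied. The genotypes were not checked here and rest on the labels. Of the other corepressor complex genes, 8 of 10 listed were measured and 0 passed the test (1.19% of all genes tested did), with log2 fold changes from -0.19 to 0.27. Among them, Hdac3 differed by 0.05 (adjusted p = 0.907) and Tbl1xr1, which encodes a core subunit, by 0.27 (adjusted p = 0.576).

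Values are log2 RMA expression values, on which a difference of 1 is a 2-fold difference, and fold changes are double KO minus SMRT KO. Correlations between arrays over all probe sets ran from 0.985 to 0.989 between SMRT KO and double KO livers and from 0.988 to 0.992 within these groups. On the first principal component, which held 28.6% of the variance, the double KO arrays lay at 17.1 to 20.8 and the other 6 arrays at -12.2 to -6.39. The 3 mice of a group are labelled as separate replicates. As a guide to dim signal, the 1390 olfactory and vomeronasal receptor genes on the array, which liver is not known to use, had a median of 3.84 and a 95th percentile of 5.97.

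Added NCoR loss raised 166 genes and lowered 97 at an adjusted p below 0.05 (limma with Benjamini-Hochberg adjustment over all 22180 genes), which are 0.748% and 0.437% of the genes tested and together 263 genes, or 1.19%. Of these, 50 rose and 24 fell at least 2-fold. In 24 of the 263 genes the lower group lay below the receptor level of 5.97, and in 10 both groups did, so the size of those folds is uncertain. The median log2 fold change was 0.75 among the genes that rose and -0.68 among those that fell, against 0.0017 over all genes tested. All 263 called genes separated the SMRT KO from the double KO mice without overlap, as did 3051 genes or 13.8% of those tested. Leaving out single mice moved the count of rises to between 68 and 149, with 68 without double KO replicate 2, 85 without SMRT KO replicate 1, 99 without double KO replicate 3 and 100 without SMRT KO replicate 2. The count of falls moved to between 33 and 85, with 33 without double KO replicate 2, 39 without SMRT KO replicate 1, 45 without double KO replicate 1, 50 without SMRT KO replicate 3, 53 without double KO replicate 3 and 63 without control replicate 3. In all 9 of these fits 82 of the 263 genes kept their call.

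**Figure D1:**
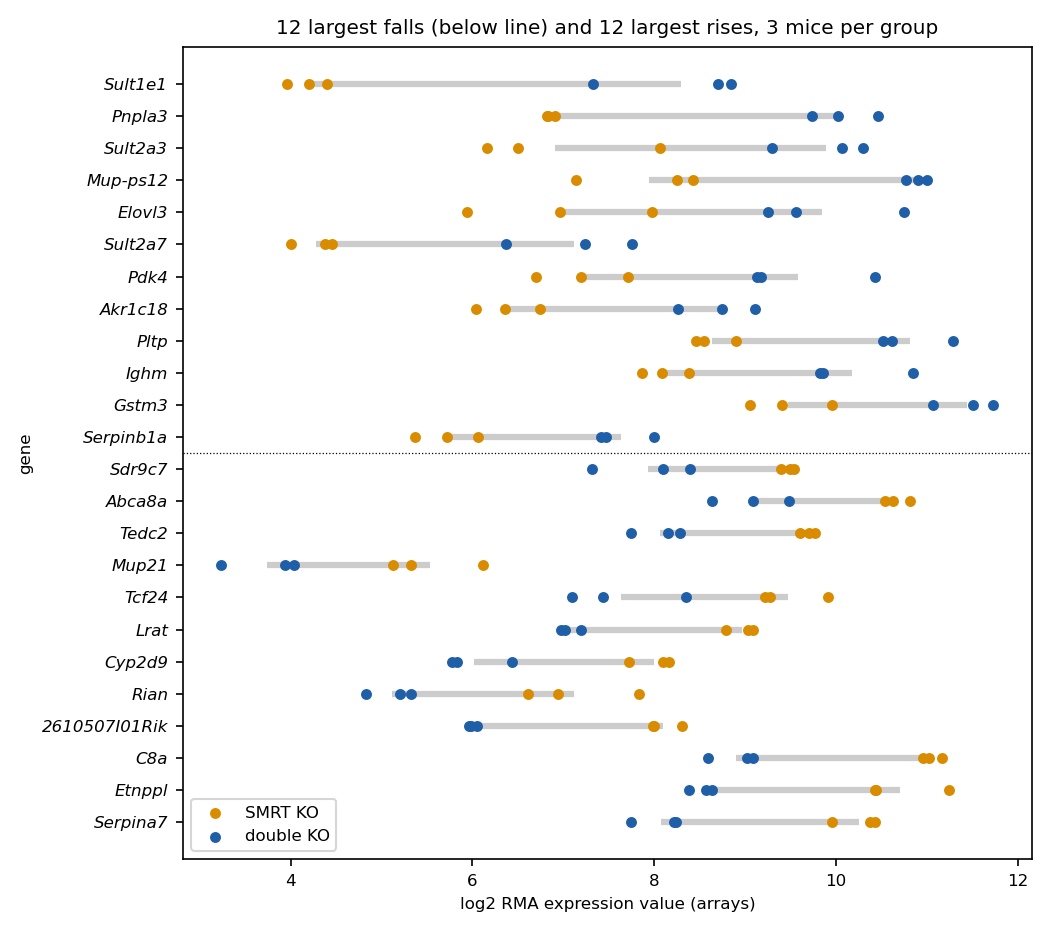
Log2 RMA expression values (x axis) of the 12 genes with the largest rise (above the dotted line) and the 12 with the largest fall (below it), chosen for their change, with 1 point per mouse, 3 SMRT KO mice in orange and 3 double KO mice in blue; grey bars join the group means. The rises run from 1.91 for Serpinb1a to 4.10 for Sult1e1 and the falls from -1.54 for Sdr9c7 to -2.19 for Serpina7. In each of the 24 genes the groups do not overlap, as in all 263 called genes and 13.8% of all genes tested.

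The promoters of 4 genes on which the results turn are shown, as the 250 bases before the transcription start in RefSeq (GRCm38.p6), 5′ to 3′ on the gene's strand. Sult1e1 had the largest rise, Pnpla3 the smallest adjusted p, and C8a and C8b are on the same chromosome and fell together. Capitals mark TGACCT, the reverse complement of AGGTCA, the core hexamer that many nuclear receptors recognise, and the search covered both strands.
Sult1e1, chr5:87591612-87591861, minus strand: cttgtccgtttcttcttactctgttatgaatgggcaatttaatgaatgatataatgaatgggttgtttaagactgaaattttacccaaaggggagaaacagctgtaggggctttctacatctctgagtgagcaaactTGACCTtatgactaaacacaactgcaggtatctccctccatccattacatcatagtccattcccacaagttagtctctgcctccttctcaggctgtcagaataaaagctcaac
Pnpla3, chr15:84167566-84167815, plus strand: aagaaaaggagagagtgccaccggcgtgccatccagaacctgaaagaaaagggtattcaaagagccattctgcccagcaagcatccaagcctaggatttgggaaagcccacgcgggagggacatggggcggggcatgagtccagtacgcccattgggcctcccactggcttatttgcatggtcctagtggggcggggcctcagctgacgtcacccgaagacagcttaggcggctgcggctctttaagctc
C8a, chr4:104876399-104876648, minus strand: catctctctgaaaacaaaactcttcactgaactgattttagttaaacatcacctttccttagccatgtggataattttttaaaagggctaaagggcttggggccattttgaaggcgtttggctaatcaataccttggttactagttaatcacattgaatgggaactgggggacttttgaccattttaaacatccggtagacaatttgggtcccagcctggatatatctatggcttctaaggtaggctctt
C8b, chr4:104766067-104766316, plus strand: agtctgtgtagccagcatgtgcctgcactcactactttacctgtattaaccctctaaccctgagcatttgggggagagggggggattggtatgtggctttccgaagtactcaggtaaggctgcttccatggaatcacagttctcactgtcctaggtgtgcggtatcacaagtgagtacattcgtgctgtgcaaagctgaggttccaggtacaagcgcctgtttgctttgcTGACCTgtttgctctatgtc
The hexamer began 113 bases before the start of Sult1e1 and 20 bases before that of C8b, and was not found in the windows of Pnpla3 and C8a. Among all genes tested, 16990 matched a promoter by symbol and 14.4% of these held the hexamer on either strand in at least 1 promoter. It was present for 26 of the 133 matched genes that rose (19.5%) and for 13 of the 82 matched genes that fell (15.9%). These shares are a description of letters in a window and do not show that a receptor binds there.

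Among genes of fatty acid and triglyceride synthesis, 8 rose with added NCoR loss. All 26 listed genes were measured, 0 fell and 18 did not pass, and the median of the list was 0.34 against 0.0017 over all genes. Over all genes tested, 0.748% rose and 0.437% fell. The lists were chosen with earlier results of these data known, so a larger share in a list is not independent evidence. Pnpla3, which encodes a lipid droplet-associated acyl hydrolase and retinyl esterase, read 6.91, 6.83 and 6.82 in the SMRT KO mice and 10.46, 10.02 and 9.74 in the double KO mice. Every double KO mouse was thus far above every SMRT KO mouse, and the rise was 9.32-fold (log2 3.22 ± 0.15 SE, 95% interval 2.88 to 3.56, adjusted p = 6.3e-05). The enzymes that make and use malonyl-CoA rose too. Acacb, the acetyl-CoA carboxylase at the mitochondrial surface, went from 8.92, 8.34 and 8.46 to 10.06, 10.36 and 10.21, a 3.1-fold rise (adjusted p = 0.0052), and Acaca, the cytosolic carboxylase, rose 2.1-fold (log2 1.07 ± 0.115, adjusted p = 0.00354). Fasn, fatty acid synthase, read 11.37, 11.78 and 11.15 in SMRT KO and 12.57, 12.6 and 12.38 in double KO livers, a 2.11-fold rise (adjusted p = 0.0129). It was not called without double KO replicate 1 (adjusted p = 0.0538), double KO replicate 2 (0.071) or SMRT KO replicate 1 (0.0596).

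Malic enzyme 1 (Me1), which supplies NADPH for fat synthesis, was 3.06-fold higher (11.02, 10.77 and 10.01 against 12.28, 12.22 and 12.14, log2 1.61 ± 0.213, adjusted p = 0.00809). The elongase Elovl6 was 2.86-fold higher (adjusted p = 0.0168), and that call needed SMRT KO replicate 1 (0.0752 without it) and each of double KO replicates 1, 2 and 3 (0.0621, 0.0823 and 0.071). The desaturase Scd1, already among the brightest genes at 12.75, 12.56 and 13.02, stood at 13.45, 13.45 and 13.35 in the double KO mice, a 1.56-fold rise (adjusted p = 0.024). Without SMRT KO replicate 1 or 2 or double KO replicate 1, 2 or 3 its adjusted p was 0.0916, 0.0506, 0.0928, 0.108 and 0.0632. Mlxipl, which encodes the glucose-responsive regulator ChREBP and was singled out after its values were seen, rose 1.49-fold (adjusted p = 0.0227), but not with any of SMRT KO replicates 2 and 3 (0.0706 and 0.0764) or the double KO mice (0.0928, 0.0911 and 0.0619) left out. The number of the list's members that rose was 4 without double KO replicate 1 or 2 and 5 without SMRT KO replicate 1 or double KO replicate 3, and 3 with only the 2 knockout groups in the fit. Thrsp, a lipogenic protein strongly induced by thyroid hormone, had a large but uneven difference. It read 9.9, 10.52 and 9.1 in SMRT KO and 11.04, 11.27 and 10.98 in double KO livers, and the 1.26 ± 0.38 log2 difference did not pass (adjusted p = 0.226, 95% interval 0.40 to 2.11).

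**Figure D2:**
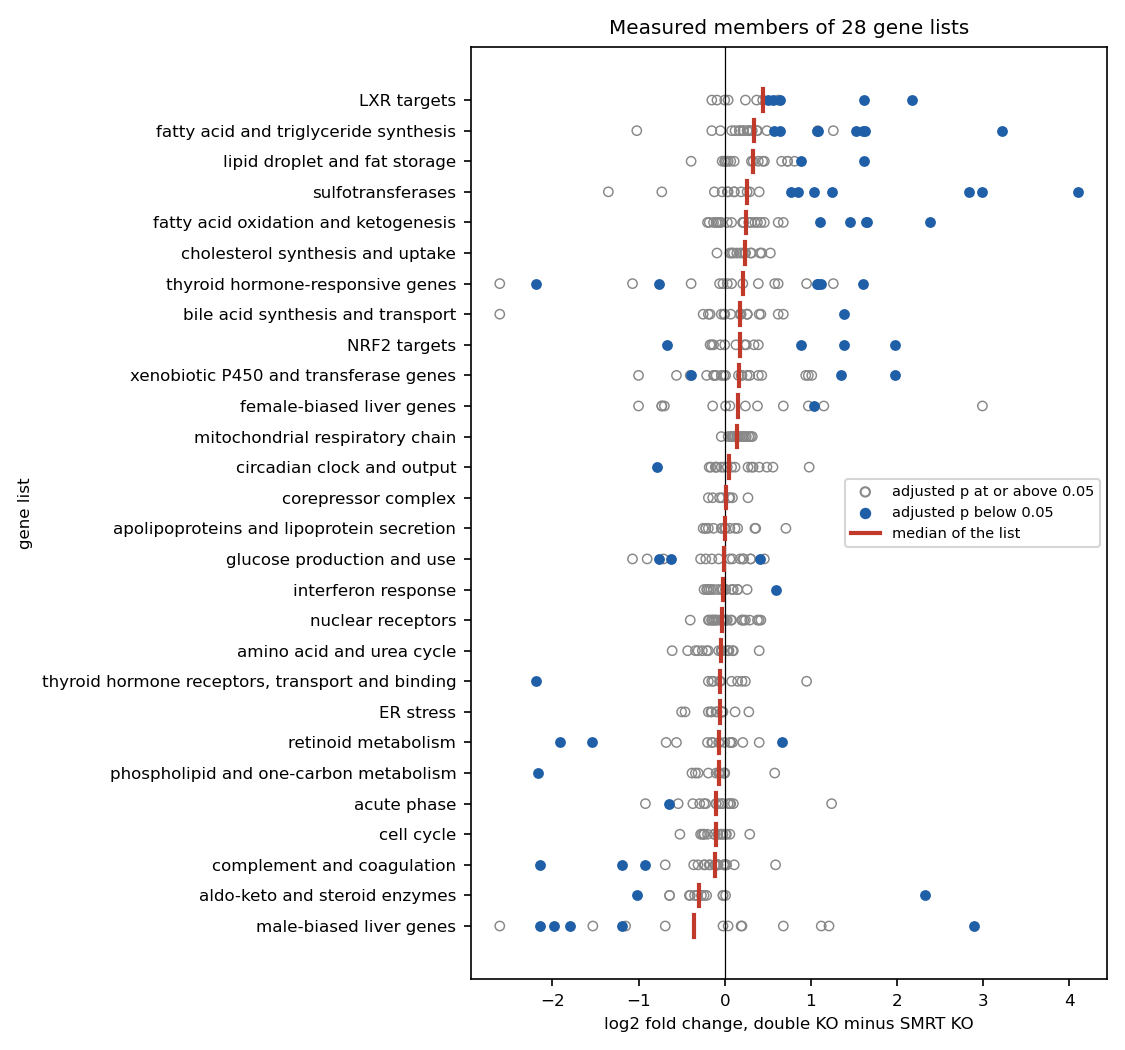
Log2 fold change, double KO minus SMRT KO (x axis), of every measured member of 28 gene lists (y axis), with filled points for an adjusted p below 0.05 and a red line at the list's median. The LXR target list has the highest median (0.44) and the male-biased liver list the lowest (-0.36), and genes on several lists are drawn in each. With single mice left out, these medians ran from 0.26 to 0.51 and from -0.83 to -0.27. Without SMRT KO replicate 1 the LXR median (0.26) lay below that of the lipid droplet list (0.43).

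Lipid storage genes include droplet coat proteins, lipases and fat uptake proteins. Of 19 measured among 20 listed, 2 rose, 0 fell and the median was 0.33 (0.748% of all genes tested rose). Plin2, which encodes the main coat protein of hepatocyte lipid droplets, went from 10.88, 10.9 and 10.69 to 11.73, 11.57 and 11.8, a 1.84-fold rise with little spread in either group (log2 0.88 ± 0.0918, adjusted p = 0.00323). Lpl, lipoprotein lipase, which adult liver normally expresses weakly, was 3.08-fold higher (8.11, 7.84 and 8.74 against 9.58, 10.08 and 9.9, adjusted p = 0.014). A second Lpl probe set, with a mean of 4.57 within the receptor range, differed by 0.36. Lpl was not called without SMRT KO replicate 1 (0.0665), double KO replicate 2 (0.0785) or double KO replicate 3 (0.0592). Fitm1, a membrane protein that partitions fat into droplets, had the largest difference that did not pass (0.81, adjusted p = 0.0704, and 0.17 in its other probe set). It passed without control replicate 1 (0.0484) or control replicate 3 (0.0313). The list's count of rises was 1 without SMRT KO replicate 1, double KO replicate 2 or double KO replicate 3, and 4 without control replicate 1 or with dim genes left out of the fit.

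The fat-burning list holds enzymes of mitochondrial and peroxisomal fatty acid oxidation and targets of the fasting receptor PPAR alpha. Of 26 measured among 30 listed, 5 rose, 0 fell and the median was 0.25 (0.748% of all genes tested rose). Pdk4, the kinase that switches off pyruvate dehydrogenase, went from 7.71, 6.7 and 7.19 to 9.17, 9.13 and 10.43, a 5.21-fold rise (adjusted p = 0.0229). It did not pass without SMRT KO replicate 2 (0.0742), SMRT KO replicate 3 (0.076) or double KO replicate 2 (0.0576). A pair of peroxisomal enzymes rose as well. Ehhadh, the peroxisomal bifunctional enzyme, stood at 11.54, 11.25 and 11.16 in SMRT KO and at 12.99, 12.93 and 12.96 in double KO livers (3.11-fold, log2 1.64 ± 0.168, adjusted p = 0.00279). Acaa1b, a peroxisomal thiolase, rose 2.74-fold (adjusted p = 0.0061), and its close relative Acaa1a differed by 0.38 (adjusted p = 0.0854).

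The acyl-CoA thioesterase Acot1, cytosolic, rose 3.14-fold (8.29, 7.88 and 7.5 against 9.5, 9.25 and 9.87, adjusted p = 0.007) and Acot2, its mitochondrial neighbour, rose 2.16-fold (adjusted p = 0.0147). These genes are near copies whose probes may cross-hybridise, and Acot2 did not pass without SMRT KO replicate 1 (0.057), SMRT KO replicate 3 (0.0571) or double KO replicate 2 (0.0573). Acot3 differed by 0.68 (adjusted p = 0.417). None of the measured genes of mitochondrial beta-oxidation passed: Cpt1a, which admits fatty acids to the mitochondrion, by 0.08 (adjusted p = 0.77), Acadm by -0.10 (0.749) and Hadha by -0.08 (0.835). The hepatokine Fgf21, a PPAR alpha target, differed by -0.13 (adjusted p = 0.837). The list's count of rises was 3 without SMRT KO replicate 3 or double KO replicate 2, and 3 with only the 2 knockout groups in the fit.

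LXR is the oxysterol receptor that promotes cholesterol efflux and fat synthesis. Of 13 measured targets among 14 listed 5 rose and 0 fell, with a median of 0.44 (0.748% of all genes tested rose). Pltp, the phospholipid transfer protein, read 8.9, 8.55 and 8.46 in SMRT KO and 10.61, 11.29 and 10.52 in double KO livers, a 4.5-fold rise (log2 2.17 ± 0.207, adjusted p = 0.0021). Lpcat3, which puts polyunsaturated chains into phospholipids, rose 1.47-fold (adjusted p = 0.0237), and was not called without SMRT KO replicate 1 (0.0821), SMRT KO replicate 2 (0.0755) or double KO replicate 2 (0.0826). Abcg5, a subunit of the sterol exporter to bile, rose 1.42-fold (adjusted p = 0.0343) and was not called in 7 of the 9 fits that each left out a mouse, all but those without control replicate 1 or 2, with an adjusted p up to 0.141 without double KO replicate 2. The partner subunit Abcg8 differed by 0.44 (adjusted p = 0.0999), and Abca1, Abcg1 and Srebf1 by 0.24, 0.04 and 0.37 without passing. The count of the list's rises was 1 without SMRT KO replicate 1 or double KO replicate 2, 2 without SMRT KO replicate 2 or double KO replicate 3, and 3 without double KO replicate 1. It was 2 with only the 2 knockout groups in the fit and 3 with the replicate number as a block. The remaining 2 calls, Lpl and Scd1, are also counted above. In the cholesterol synthesis list, 0 of 15 measured genes among 20 listed passed, against 1.19% over all genes tested. Of the 15, 14 lay above 0, against 50.6% of all genes tested, and Nsdhl, a sterol demethylation enzyme, was at 0.53 (adjusted p = 0.407). The median was 0.23, but 0.08 without double KO replicate 2 and 0.35 without double KO replicate 1.

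Thyroid hormone-responsive genes moved in both directions. Of 19 measured among 20 listed, 4 rose, 2 fell and 13 did not pass, with a median of 0.21. Over all genes tested, 0.748% rose and 0.437% fell. The rises were Me1, Fasn and Acaca, described above, and Gpd2, the mitochondrial glycerophosphate dehydrogenase, which went from 8.49, 8.38 and 7.87 to 9.43, 9.28 and 9.41 (2.18-fold, adjusted p = 0.00875). The falls were Serpina7 and Pck1, whose values are given below with their own groups. With only the 2 knockout groups in the fit, 2 of the list's genes rose. Dio1, the deiodinase that is a standard readout of thyroid hormone action in liver, stood at 10.97, 10.73 and 9.67 in SMRT KO and 11.37, 11.45 and 11.39 in double KO livers. The groups did not overlap, but SMRT KO replicate 3 lay far below its group and the 0.95 ± 0.266 difference did not pass (adjusted p = 0.179). Without that mouse Dio1 passed (adjusted p = 0.025). Klf9, a direct receptor target, differed by -0.39 (adjusted p = 0.658) and Hr by -0.02 (0.968).

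Among carriers and receptors of thyroid hormone, 11 of 12 listed were measured and Serpina7 was the only gene to pass (1.19% of all genes tested did). Serpina7 encodes thyroxine-binding globulin, the plasma carrier of the hormone, and read 10.37, 9.95 and 10.43 in SMRT KO and 8.24, 8.22 and 7.74 in double KO livers, a 4.55-fold fall (log2 -2.19 ± 0.306, adjusted p = 0.0113). The control mice read 8.42, 9.5 and 8.19, the second of them nearer the SMRT KO mice and the others nearer the double KO mice. Serpina7 was no longer called without double KO replicate 3 (0.0503) or SMRT KO replicate 1 (0.0559). The receptors themselves, Thra and Thrb, differed by 0.20 (adjusted p = 0.549) and -0.13 (adjusted p = 0.6). Slco1a1, an organic anion carrier, spread over 8.94, 6.83 and 10.39 in the double KO mice against 11.66, 11.55 and 10.78, and the -2.61 ± 0.716 difference did not pass (adjusted p = 0.169). It passed without double KO replicate 3 (0.0431). Without SMRT KO replicate 1 the thyroid hormone-responsive list held 1 fall.

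The sulfotransferases include the gene with the largest rise of the comparison. These enzymes attach sulphate to steroids, bile acids and drugs, and 19 of 19 listed genes of the group and of the synthesis of its sulphate donor were measured. Of these, 7 rose, 0 fell and 12 did not pass, with a median of 0.26 (0.748% of all genes tested rose). Sult1e1, estrogen sulfotransferase, read 4.4, 4.2 and 3.96 in the SMRT KO mice and 7.33, 8.7 and 8.84 in the double KO mice. The SMRT KO values lay within the range of the receptor genes, so the 17.1-fold rise (log2 4.10 ± 0.385, adjusted p = 0.00204) starts from a level near the dim end of the array. Sult2a7 likewise went from 4, 4.38 and 4.46 to 7.24, 7.75 and 6.37 (7.16-fold, adjusted p = 0.00339).

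Other hydroxysteroid sulfotransferases of the Sult2a cluster rose with it. Sult2a3 rose 7.9-fold (6.5, 8.06 and 6.16 against 10.06, 10.3 and 9.3, adjusted p = 0.0148), a call not seen without SMRT KO replicate 1 (0.069), double KO replicate 1 (0.065) or double KO replicate 2 (0.0823). Sult2a5 rose 2.36-fold (adjusted p = 0.00815), Sult2a4 1.81-fold (0.0229) and Sult2a1 2.06-fold (0.0357). Sult2a4 was not called when any of the 6 knockout mice was left out, and Sult2a1 when any of those 6 or control replicate 3 was left out, with adjusted p-values up to 0.0953 and 0.146. Sult2a2 and Sult2a6 differed by 0.40 (adjusted p = 0.323) and 0.19 (adjusted p = 0.595). The Sult2a genes are near-identical copies, so their separate values are uncertain. Papss2, which makes the sulphate donor and was singled out after its values were seen, rose 1.7-fold (adjusted p = 0.00854, and 0.0525 without double KO replicate 2). Sult3a2 spread widely, at 10.3, 11.08 and 8.72 against 8.67, 7.43 and 9.95, and its -1.35 difference did not pass (adjusted p = 0.549). The list's count was 3 without double KO replicate 2 and 4 without SMRT KO replicate 1 or double KO replicate 1.

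**Figure D3:**
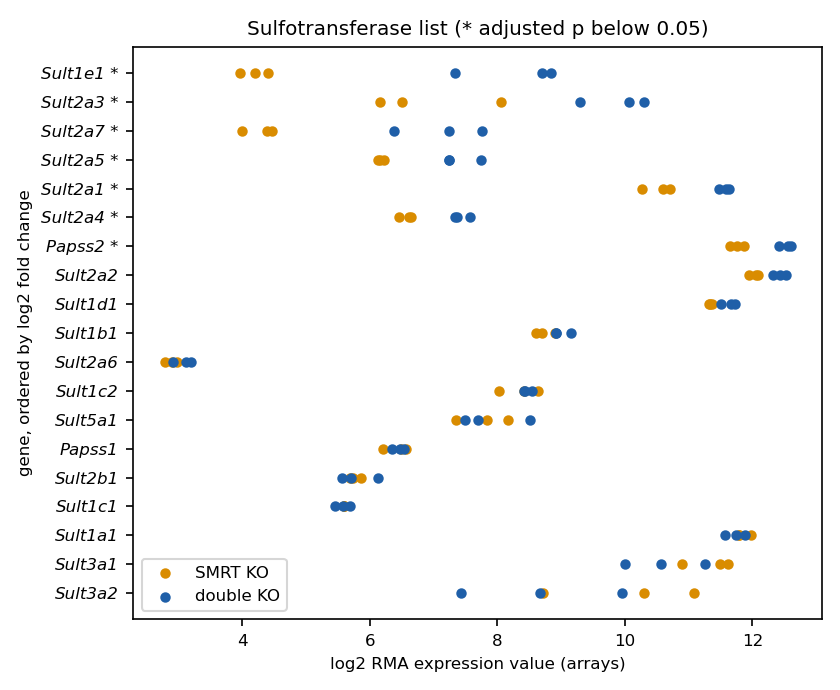
Log2 RMA expression values (x axis) of the 19 sulfotransferase-list genes (y axis, ordered by fold change), with 1 point per mouse, SMRT KO in orange and double KO in blue; asterisks mark an adjusted p below 0.05. Sult1e1 and Sult2a7 start below 4.5 in the SMRT KO mice. The groups of the 7 marked genes do not overlap, as in all 263 called genes and 13.8% of all genes tested.

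Other enzymes and pumps of steroid and drug handling moved gene by gene. Calls in either direction made up 1.19% of all genes tested. In the bile acid list 1 of 19 measured genes among 20 listed rose: Abcc4, an export pump of the sinusoidal membrane, read 7.47, 7.57 and 7.53 in SMRT KO and 8.96, 9.12 and 8.64 in double KO livers (2.61-fold, log2 1.38 ± 0.121, adjusted p = 0.00186). Cyp7a1, the rate-limiting enzyme of bile acid synthesis, differed by 0.62 with overlapping groups (adjusted p = 0.597). The bile acid list held 2 rises without control replicate 1 and 1 fall without double KO replicate 3. Among 23 measured genes of 28 listed for xenobiotic metabolism, Gstm3, a mu-class glutathione transferase, rose 3.91-fold (9.05, 9.4 and 9.96 against 11.51, 11.73 and 11.07, adjusted p = 0.0069) and Cyp3a25 rose 2.55-fold (adjusted p = 0.00458). Both belong to families of near copies, and Gstm1 differed by 0.39 (adjusted p = 0.344). Cyp2c55 differed by 1.01 (adjusted p = 0.0737), against 3.06 in its other probe set, and passed without SMRT KO replicate 2 (0.029).

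Cyp1a2, the dioxin-inducible P450, fell slightly but evenly, from 12.39, 12.49 and 12.43 to 12.04, 12.08 and 12.03 (1.31-fold, adjusted p = 0.0259). It was not called when any of the 6 knockout mice was left out, with adjusted p-values up to 0.0937. In the NRF2 list, whose genes answer oxidative stress, 3 of 14 measured among 16 listed rose (Gstm3, Abcc4 and Osgin1) and 1 fell. The shares over all genes tested were 0.748% and 0.437%. Osgin1, an oxidative stress-induced growth inhibitor, rose 1.85-fold (adjusted p = 0.024) and was not called without SMRT KO replicates 1, 2 or 3 (0.0522, 0.0769 and 0.0841) or double KO replicates 1 or 3 (0.0928 and 0.0995). Gclc, the catalytic subunit for glutathione synthesis, fell 1.59-fold (adjusted p = 0.0411) and kept its call in 1 of the 9 fits that left out a mouse, that without double KO replicate 1. In the steroid enzyme list, Akr1c18, 20-alpha-hydroxysteroid dehydrogenase, rose 4.99-fold (6.74, 6.04 and 6.36 against 8.74, 8.26 and 9.11, adjusted p = 0.0044) while 12 of 14 measured genes lay below 0. Of all genes tested, 50.6% lay above 0. Hsd3b2 fell 2.02-fold (adjusted p = 0.024), with calls lost without SMRT KO replicates 1, 2 or 3 (0.0864, 0.0551 and 0.0841) or double KO replicates 2 or 3 (0.108 and 0.0822). Hsd3b3 differed by -0.64 (adjusted p = 0.133) and passed without SMRT KO replicate 1 (0.0275).

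C8a, the alpha chain of complement component C8, read 11.02, 10.96 and 11.16 in SMRT KO and 9.09, 8.59 and 9.02 in double KO livers. The groups lay far apart, and the fall was 4.42-fold (log2 -2.14 ± 0.136, adjusted p = 0.000351). C8b, the beta chain, went from 11.78, 11.7 and 12.01 to 10.73, 10.27 and 10.93 (2.28-fold, adjusted p = 0.00817), whereas C8g, the gamma chain, differed by 0.02 (adjusted p = 0.961). Of 24 measured genes among 28 listed for complement and coagulation, 3 fell, 0 rose and the median was -0.11 (0.437% of all genes tested fell). The third fall was F11, coagulation factor XI (1.9-fold, adjusted p = 0.0344), which was not called without SMRT KO replicates 1 or 3 (0.123 and 0.104), double KO replicates 1, 2 or 3 (0.132, 0.148 and 0.053) or control replicate 2 (0.0587). C6 differed by -0.69 (adjusted p = 0.118). With only the 2 knockout groups in the fit, 1 gene of the list fell. In the acute phase list, 1 of 17 measured genes among 18 passed. It was Saa4, the constitutive serum amyloid A, which fell 1.57-fold (12.38, 12.42 and 12.58 against 11.84, 11.82 and 11.78, adjusted p = 0.0044). Orm3 differed by 1.24 (adjusted p = 0.18).

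Retinoid genes split. Lrat, the enzyme that esterifies retinol for storage, went from 9.03, 8.79 and 9.09 to 7.02, 7.19 and 6.97, a 3.76-fold fall (log2 -1.91 ± 0.127, adjusted p = 0.000391). Sdr9c7, a retinol dehydrogenase-like enzyme, fell 2.91-fold (adjusted p = 0.0253), with the call lost without SMRT KO replicates 1, 2 or 3 (0.0821, 0.0773 and 0.0841), double KO replicate 1 (0.0697) or control replicate 3 (0.0515). Rdh16, another dehydrogenase, rose 1.59-fold (adjusted p = 0.0183) and was not called without SMRT KO replicates 1, 2 or 3 (0.0795, 0.0509 and 0.0598). Cyp26a1, which degrades retinoic acid, differed by -0.07 (adjusted p = 0.979), and Rdh9 by -0.68 (adjusted p = 0.0724), passing without double KO replicate 1 (0.0408). With 1 rise and 2 falls in 16 measured genes of 17 listed, the median was -0.06 (1.19% of all genes tested were called). The list held 2 rises without control replicate 2, and 1 fall without SMRT KO replicate 1, SMRT KO replicate 2 or control replicate 3.

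Etnppl, which breaks down phosphoethanolamine, read 10.43, 10.44 and 11.24 in SMRT KO and 8.64, 8.38 and 8.57 in double KO livers, a 4.51-fold fall (adjusted p = 0.00367). It was the only call among 13 measured phospholipid and one-carbon genes of 18 listed, where Chka, choline kinase alpha, differed by 0.58 (adjusted p = 0.31). In the glucose list, Pck1, which encodes the cytosolic PEPCK of gluconeogenesis, was lower in every double KO mouse, from 13.16, 13 and 13.1 to 12.33, 12.3 and 12.33 (1.7-fold, log2 -0.76 ± 0.0738, adjusted p = 0.00219). Gys2, liver glycogen synthase, fell 1.53-fold (adjusted p = 0.0327) and Pygl, liver glycogen phosphorylase, rose 1.33-fold (adjusted p = 0.0328). Gys2 was not called without SMRT KO replicates 1, 2 or 3 (0.123, 0.0837 and 0.072), double KO replicates 1 or 2 (0.107 and 0.0928) or control replicate 3 (0.0632), and Pygl was not called when any of the 6 knockout mice was left out, with an adjusted p up to 0.126. G6pc differed by 0.21 (adjusted p = 0.771) and the coactivator Ppargc1a by -1.07 (adjusted p = 0.0889), passing without SMRT KO replicate 2 (0.016). Of 18 measured glucose genes among 20 listed, 15 did not pass (1.19% of all genes tested passed).

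Genes that differ between male and female liver moved in both directions. Their levels are set by the pattern of growth hormone release, and all 9 mice were female. Of 16 measured male-biased genes among 20 listed, 1 rose and 4 fell, with a median of -0.36. Over all genes tested, 0.748% rose and 0.437% fell. Besides C8a and C8b, the falls were Cyp2d9, a male-specific P450 (8.16, 8.1 and 7.72 against 5.78, 5.83 and 6.44, 3.94-fold, adjusted p = 0.00339), and Mup21, a major urinary protein that was dim in every group. Mup21 went from 6.12, 5.33 and 5.13 to 4.04, 3.94 and 3.24 (adjusted p = 0.0224), and was not called without SMRT KO replicates 1 or 2 (0.0584 and 0.0522) or double KO replicates 2 or 3 (0.0785 and 0.0681). Elovl3, an elongase, was 7.43-fold higher with wide spread (7.98, 6.96 and 5.94 against 9.56, 9.25 and 10.75, adjusted p = 0.0473). That call was lost without 7 of the 9 mice, all but SMRT KO replicate 1 and control replicate 1, with an adjusted p up to 0.158. The male-biased list therefore held 0 rises when any of those 7 was left out, and 0 rises and 2 falls with only the 2 knockout groups in the fit. Of 14 measured female-biased genes among 16 listed, Sult2a1 was the only call, and 2 genes rose without control replicate 2. Cyp3a16 differed by 2.99 (adjusted p = 0.329), with 11.05, 10.39 and 6.15 in SMRT KO and 12.23, 12.18 and 12.16 in double KO livers, so that SMRT KO replicate 3 alone lay far below.

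The other genes with the largest changes are of varied function. Mup-ps12, a major urinary protein pseudogene with many near copies, read 8.43, 7.14 and 8.25 in SMRT KO and 10.9, 11 and 10.77 in double KO livers (7.73-fold, adjusted p = 0.00204), and 9.99, 10.19 and 10.14 in the control livers. Its SMRT KO mice thus lay below both other groups. Serpinb1a, an elastase inhibitor, rose 3.76-fold (adjusted p = 0.0044) from a SMRT KO level within the receptor range. Ighm, the immunoglobulin mu heavy chain, rose 4.19-fold on the probe set with the highest mean (8.08, 7.86 and 8.38 against 9.82, 10.85 and 9.86, adjusted p = 0.00696). Its 6 other probe sets, with means of 4.61 to 8.73, differed by -0.16 to 0.37, and with the mean of all its probe sets Ighm was not called.

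Among the falls, Abca8a, an ABC transporter, fell 3.01-fold (10.81, 10.63 and 10.54 against 9.09, 8.64 and 9.48, adjusted p = 0.00403) and Tedc2, which encodes a tubulin-complex protein, fell 3.11-fold (9.77, 9.7 and 9.6 against 8.15, 7.74 and 8.28, adjusted p = 0.00186). Tcf24, a bHLH factor gene, fell 3.58-fold (adjusted p = 0.0243). It did not pass without SMRT KO replicates 1, 2 or 3 (0.0706, 0.0533 and 0.0803), double KO replicates 2 or 3 (0.115 and 0.0784) or control replicate 3 (0.0511). Rian, a long non-coding RNA of the imprinted Dlk1-Meg3 region, fell 4-fold to a level within the receptor range (6.94, 7.83 and 6.61 against 5.2, 4.83 and 5.33, adjusted p = 0.0147), and was not called without SMRT KO replicate 1 (0.0504), double KO replicate 1 (0.0528) or double KO replicate 2 (0.0815). The uncharacterised 2610507I01Rik fell 4.3-fold (8, 7.99 and 8.3 against 5.98, 6.05 and 5.96, adjusted p = 0.0168), and was not called when any of the 6 knockout mice was left out (adjusted p up to 0.0815). Its control mice read 6.14, 6.34 and 7.67, the last of them nearer the SMRT KO mice and the others nearer the double KO mice.

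To ask whether a gene changed differently when NCoR was lost on top of SMRT than when SMRT was lost first, the double KO minus SMRT KO difference was set against the SMRT KO minus control difference in the same model. The difference of these steps is positive where the SMRT KO mean lies below the midpoint of the control and double KO means. It passed for 30 genes, 18 positive and 12 negative, or 0.135% of those tested, and 28 of these are among the 263 genes above. Pnpla3 stood at 6.32, 6.32 and 6.41 in control mice, so the first step was 0.50 and the second 3.22, and the steps differed by 2.72 ± 0.26 (adjusted p = 0.0104). Sult1e1 passed as well (adjusted p = 0.0437), but its control and SMRT KO means both lay below the receptor level of 5.97, so no size is given for its first step. C8a and Lrat held their control level in SMRT KO mice to within 0.25 and 0.11 and fell with added NCoR loss (differences -2.39 ± 0.236, adjusted p = 0.0104, and -2.02 ± 0.219, adjusted p = 0.0173). Plin2 and Tedc2 passed too, with first steps of -0.24 and 0.21 (differences 1.12, adjusted p = 0.0451, and -1.85, adjusted p = 0.0437).

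In a second set of genes the SMRT KO mice stood apart from both other groups. Mup-ps12 was -2.16 in the first step and 2.95 in the second (difference 5.11 ± 0.477, adjusted p = 0.0104). Serpina7 was 1.55 in the first step and -2.19 in the second (difference -3.74 ± 0.531, adjusted p = 0.0451). Etnppl was 0.85 and -2.17 (difference -3.02 ± 0.407, adjusted p = 0.0437). Its control mean lay nearer the SMRT KO than the double KO mean, so its double KO mice stood apart from control as well. Xaf1, an interferon-induced apoptosis factor, was the only call among 17 measured interferon genes of 22 listed (1.19% of all genes tested were called). It read 8.6, 8.43 and 8.65 in control, 7.89, 8.05 and 8 in SMRT KO and 8.52, 8.64 and 8.55 in double KO livers (difference 1.17 ± 0.136, adjusted p = 0.0228). The SMRT KO minus control step did not by itself pass for Mup-ps12 (adjusted p = 0.0924), Serpina7 (0.326), Etnppl (0.595) or Xaf1 (0.0924). Both steps contain the SMRT KO arrays, so an error in those arrays enters each of them. Without SMRT KO replicate 3 the difference passed for 0 genes (limma, 2048 at an unadjusted p below 0.05), for 1 and 2 genes with SMRT KO replicates 1 and 2 left out, for 10, 5 and 5 with the double KO mice left out in order, and for 8, 14 and 16 with the control mice left out. None of the 30 calls therefore holds without SMRT KO replicate 3, and over the 9 fits Mup-ps12 passed in 8, Pnpla3 and C8a in 6, Lrat in 3, Xaf1 in 2, Sult1e1 and Serpina7 in 1, and Etnppl, Plin2 and Tedc2 in 0.

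**Figure D4:**
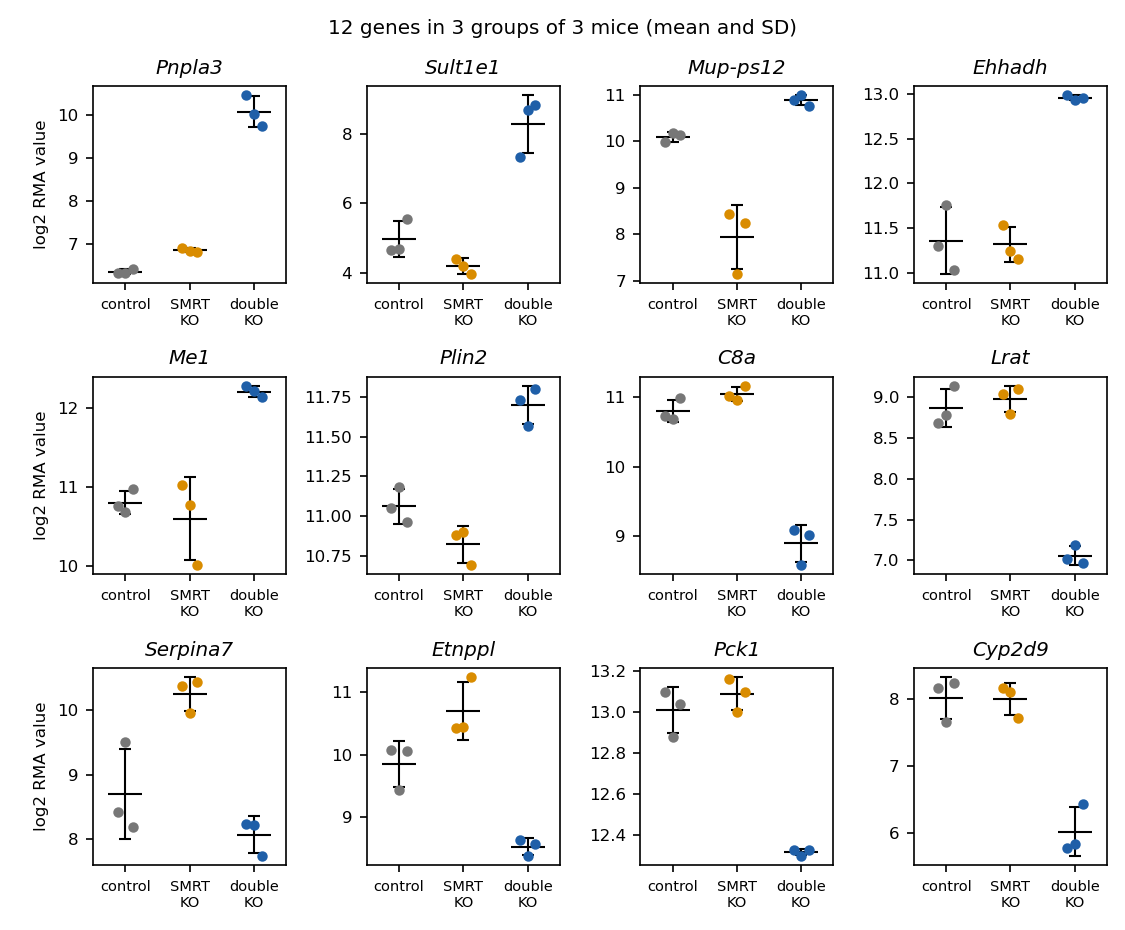
Log2 RMA expression values (y axis, scaled to each gene) of 12 genes in control (grey), SMRT KO (orange) and double KO (blue) livers, with 1 point per mouse and black lines for the mean and SD of 3 mice. In Pnpla3, Ehhadh, C8a, Lrat, Pck1 and Cyp2d9 the double KO mice stand apart from both other groups. In Mup-ps12, Serpina7 and Etnppl the SMRT KO mice lie outside the range of the control mice, and in Serpina7 the double KO mice overlap that range.

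Several groups of genes held few or no calls. With 1.19% of all genes tested called, 0 calls in a list of this length is near that share and sets no group apart. In the clock list, 1 of 18 measured genes among 20 passed: Per1 fell 1.72-fold (9.54, 9.36 and 9.55 against 8.64, 8.61 and 8.84, adjusted p = 0.0277), and was not called when any of the 6 knockout mice or control replicate 3 was left out, with an adjusted p up to 0.125. Without double KO replicate 2 the list held 1 rise. The labels give no hour of sampling. The nuclear receptors gave 0 calls in 29 measured genes, where the orphan receptor Nr0b2 differed most (0.42, adjusted p = 0.495, groups overlapping). Also with 0 calls were the cell cycle (16 measured, largest Cdk1 at -0.52, adjusted p = 0.23), ER stress (14 measured, largest Herpud1 at -0.50, adjusted p = 0.0588), urea cycle and amino acid genes (17 measured, largest Ass1 at -0.61, adjusted p = 0.181) and apolipoproteins (16 measured, largest Apoa4 at 0.71, adjusted p = 0.0795). Apoa4 passed without control replicate 1 (0.0348). The respiratory chain list had 20 of 21 measured genes above 0, against 50.6% of all genes tested, and 0 calls. Its median was 0.14, and its largest difference, Uqcrfs1 at 0.32, passed without SMRT KO replicate 3 (0.0204).

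Markers of the liver's cell types were measured in the same bulk RNA, in which fewer cells of a type and less RNA per cell cannot be told apart. Over all genes tested 1.19% were called, so 0 calls in a short marker list is near that share. Hepatocyte markers gave 0 calls in 12 genes and a median of -0.05, and 1 of them fell without control replicate 3. Their summed linear values were 110000 to 112000 in SMRT KO, 103000 to 106000 in double KO and 110000 to 114000 in control livers. The double KO range thus lay below both others. All 14 Kupffer cell and macrophage markers lay below 0, with a median of -0.28, while 50.6% of all genes tested lay above 0. All 14 had group means above the 95th percentile of the receptor genes. Fcna, ficolin A, was the only one to pass (8.55, 8.62 and 8.55 against 7.87, 7.88 and 8.03, -0.65 ± 0.0845, adjusted p = 0.00783). The other 13 differed by up to -0.58 for Cd163 (adjusted p = 0.171). Their sum was 6560 to 7450 in SMRT KO, 5280 to 6220 in double KO and 5730 to 6550 in control livers, so the knockout groups did not overlap, and the control range overlapped that of the double KO livers. The part of this difference in the falls above was not tested. Of 12 stellate cell and fibroblast markers, Lrat was the only call, and the sums were 6070 to 7220 and 4980 to 6500.

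Endothelial markers gave 0 calls in 12 genes (median -0.08), with overlapping sums of 7900 to 8520 and 7040 to 8400. Lymphocyte markers gave 0 calls in 11 measured genes (median -0.13), of which 4, Cd3d, Cd8a, Cd79a and Ms4a1, lay within the receptor range, and the sums were 1060 to 1340 and 971 to 1100. Neutrophil markers gave 0 calls in 8 genes, with 7 within the receptor range and sums of 289 to 310 and 284 to 307. The cholangiocyte (6 measured, sums 432 to 443 and 441 to 486), erythroid (2 measured, 112 to 124 and 116 to 119), pancreatic acinar (5 measured, 290 to 367 and 313 to 338) and adipocyte lists (5 measured, 369 to 447 and 383 to 462) also gave 0 calls. In these lists, the measured members Cftr, Epb42, Prss2, Cpa1, Adipoq and Lep lay within the receptor range in every group.

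**Figure D5:**
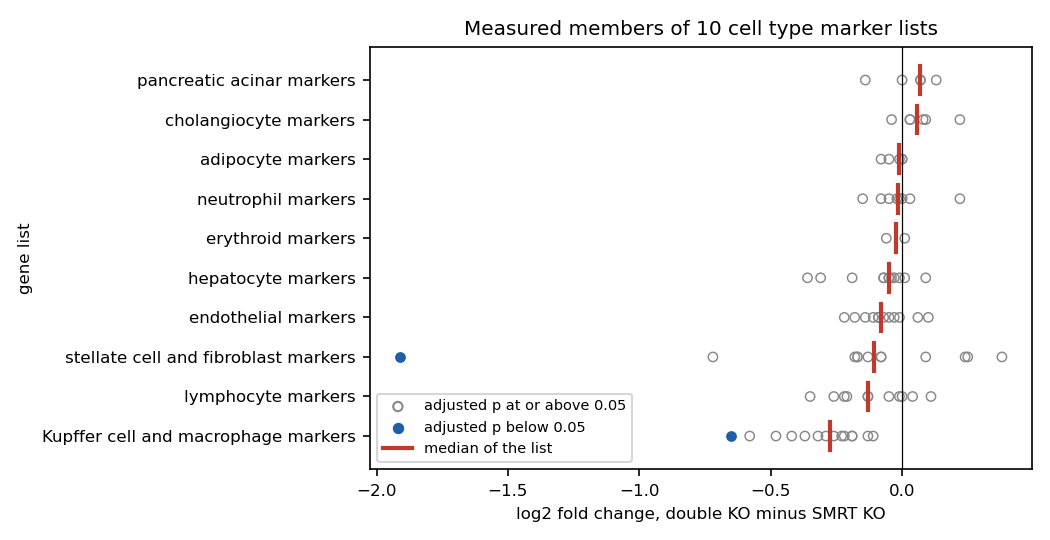
Log2 fold change, double KO minus SMRT KO (x axis), of the measured members of 10 cell type marker lists (y axis), with filled points for an adjusted p below 0.05 and a red line at each median. The Kupffer cell list has the lowest median (-0.28) with all 14 members below 0, and the filled points are Lrat and Fcna.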

How the data were processed

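Total liver RNA of 9 female mice was hybridised to Affymetrix whole-transcript arrays after amplification of 200 ng per mouse. The deposited table gives log2 expression values, which per the submitters' processing notes come from RMA (version not stated in the sources used here). RMA quantile-normalizes all arrays together, so a shift shared by most genes would not show. Arrays give no read depth, and their number limits the precision. Groups and columns follow the sample titles.

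Of 41345 probe sets, 23521 had exactly 1 symbol, 1814 several, and 16010 were not listed in the platform annotation. For each of 22180 genes the probe set with the highest mean over the 9 arrays was kept, with no filter on level; 1082 genes had several. Through a RefSeq table (GRCm38.p6) 23328 single-symbol probe sets were found.

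The test was limma's (version 3.58.1, R 4.3.3; 1 model over 9 arrays, no block, eBayes, two-sided, 6 residual and 3.36 prior degrees of freedom), followed by Benjamini-Hochberg adjustment over all genes and calls below 0.05. The difference of the 2 knockout steps was a contrast of the same model. Nothing in the labels says more than that the mice are separate, so p-values measure the spread between these mice. An exact permutation test of 3 against 3 cannot go below p = 0.1 and was not used. The double KO against SMRT KO test was also run on simulated data, which did not cover the difference of the 2 steps. Errors are standard errors from the model.

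Named genes are the 12 largest called rises and falls, Thrsp, Dio1, Me1 and Fasn, and, in each of 28 pathway and 10 marker lists, up to 6 called members and the uncalled member with the largest difference; other genes are named as examples of a list. The members, lists and rule were chosen with earlier results of these data known, so they are not independent evidence. Lists were not tested as sets. Alternatives were other samples in the fit, a replicate block, variance model, dim genes left out, mean of probe sets, cyclic loess, centring, array weights and leaving out each mouse. A planned check of the genotypes is not reported here.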

Additional observations from a re-analysis of the deposited data

Results flagged for a closer look

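Probe sets outside the gene comparison also differed. When all 41345 probe sets were fitted together, 156 passed, and 33 of these had no symbol in the annotation used here, out of 17824 probe sets without exactly 1 symbol (0.185%). Of the 33, 17 were higher and 16 lower in double KO than in SMRT KO livers, with log2 fold changes up to 3.99 and down to -3.44. The transcripts behind these 33 were not analysed here. The remaining calls of this fit were of probe sets with exactly 1 symbol. They were fewer than the genes called in the main comparison, so many of the main calls did not pass when all probe sets were tested.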

How the results depend on the processing

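The number of calls moved with the arrays and genes kept in the fit. With only the 2 knockout groups in the fit, 83 genes were higher and 41 lower, and 120 of these 124 were among the 263 genes. Leaving out genes dimmer than the receptor level gave 147 lower genes, and 376 calls in all, of which 253 were shared. Leaving out each mouse gave 68 to 149 higher and 33 to 85 lower genes, and 0 to 16 genes for the difference of the 2 steps. That difference passed for 8 genes with the replicate block, 69 without dim genes and 12 with array weights, against 30. The other settings left these 3 counts within 1.5 times, and centring on array medians put the share of rises at 65.6% against 63.1%. The fit of all probe sets, described above, was not among these settings and gave fewer calls than the 263. Same-numbered mice did not deviate together (correlations of deviations -0.085 to 0.117, and not every mouse correlated best with its own number). With 3 mice per group this cannot show that the numbers carry no pairing, and the main fit treated the mice as unpaired. With the replicate block 126 genes were higher and 69 lower, of which 170 were among the 263. For the 84 named genes, 1241 of 1427 alternative values kept direction and call, 166 lost the call, 19 gained it and 1 changed sign: Igtp, not called, was -0.04 without SMRT KO replicate 1 and between that and 0.44 over all mice left out, against 0.26. With all mice kept, the called members of lists other than those whose change is given above moved between 0, 1 and 2, except for 4 retinoid falls against 2 with dim genes left out. List medians moved by over 0.1 in 13 of 646 settings.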

Other observations

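Beyond Pdk4, 11 genes around pyruvate dehydrogenase were looked at after their values were seen, and 5 passed. Of all genes tested 1.19% did, but the genes were picked with their values known, so the count is no test of the group. Pdp2, which encodes a phosphatase that turns the complex on, rose by 0.78 on the log2 scale (adjusted p = 0.00403) and kept its call without each of the 9 mice in turn. Pdk1, a kinase that turns it off, rose by 0.71 (adjusted p = 0.0162), against 0.28 in its other probe set. Dlat and Pdha1, subunits of the complex, rose by 0.40 (adjusted p = 0.0243) and 0.47 (adjusted p = 0.0366), and citrate synthase, Cs, by 0.47 (adjusted p = 0.03). Without single mice these 4 genes were called in 5, 3, 2 and 4 of 9 fits. Pdhb, Pdhx, Dld, Pdk2, Pdk3 and Pdp1 differed by 0.34, 0.25, 0.19, 0.15, 0.06 and 0.00 and did not pass.

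Other genes that kept their call without each mouse, also chosen after their values were seen, include Ces2a, a carboxylesterase (11.13, 11.21 and 11.29 against 12.56, 12.71 and 12.52, adjusted p = 0.000508), Acot11, a thioesterase (2.45-fold, adjusted p = 0.00696), and Rcan2, a calcineurin regulator (7.13, 7.34 and 6.96 against 8.69, 8.78 and 8.66, 2.97-fold, adjusted p = 0.00434). Next to Rian, which fell, the neighbouring imprinted genes Meg3 and Dlk1 differed by 0.06 (adjusted p = 0.876) and -0.06 (adjusted p = 0.891).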
